A study of Rattus norvegicus with 9 samples.

Results

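The cytoplasmic ribosomal protein genes encode the proteins of the ribosome that reads nuclear mRNA. Members were taken by name, as rat symbols of Rpl or Rps followed by a number and at most the letter a, x or y, together with Rplp0, Rplp1, Rplp2 and Rpsa, with a mean of at least 10 CPM over the 9 libraries (CPM is a count scaled to a common library size). The rule found 76 of the 17465 genes in the table, 45 of the large subunit (Rpl) and 31 of the small subunit (Rps). No gene with a matching name was lost to the CPM minimum, and the member nearest to it, Rpl36, had a mean of 75.5 CPM of the library total. Of the matching symbols in RefSeq, 1 (Rpl37) was not analysed here.

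Lungs of fetal Sprague-Dawley rats were profiled by sequencing total RNA from which ribosomal RNA had been depleted. Control lungs received no treatment, hypoplastic lungs (underdeveloped, in a model of oligohydramnios, the lack of amniotic fluid) received none either, and a further group of hypoplastic lungs was treated with AFSC-EV, extracellular vesicles of amniotic fluid stem cells. Each group had 3 libraries, and the labels do not say that these came from separate litters, so p-values measure the spread between these libraries. The sources used here do not state fetal age, vesicle dose or route.

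Each ribosome holds a small subunit, which decodes the mRNA, and a large subunit, which joins amino acids. Their proteins are needed in fixed proportions, and the mRNAs of nearly all of them begin with a pyrimidine-rich stretch, the TOP (terminal oligopyrimidine) tract, through which growth signals acting on the kinase mTOR control their translation together. Growing fetal tissues make ribosomes at a high rate. Vertebrate genomes also carry many processed copies of these genes, which makes short reads from them hard to place.

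The start regions of several members are shown because the tract is a feature known for most of these genes. Each sequence, from RefSeq on assembly GRCr8, holds 40 bases before the annotated start and 20 bases from it. Capitals mark unbroken runs of 5 or more C or T that reach into the stretch from 10 bases before the start to 15 after it. Rplp0, Rpl10, Rpl28, Rps26 and Rps27 have the tract at the annotated start. Rps6 does not, but a longer, unmarked run of C and T lies further upstream in its sequence. In Rpl38, shown for its unusual levels, the marked run ends just before the annotated start. Whether the annotated starts are those used in these lungs was not tested.
Rplp0 (chr12:46718371-46718430, minus strand): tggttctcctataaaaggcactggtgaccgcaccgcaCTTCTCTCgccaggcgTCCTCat
Rpl10 (chrX:157205810-157205869, plus strand): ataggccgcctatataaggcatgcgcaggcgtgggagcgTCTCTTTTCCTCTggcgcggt
Rpl28 (chr1:78083513-78083572, minus strand): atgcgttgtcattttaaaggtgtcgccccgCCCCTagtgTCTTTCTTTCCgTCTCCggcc
Rps26 (chr7:1643385-1643444, minus strand): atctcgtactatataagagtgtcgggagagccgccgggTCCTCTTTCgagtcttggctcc
Rps27 (chr2:177964587-177964646, minus strand): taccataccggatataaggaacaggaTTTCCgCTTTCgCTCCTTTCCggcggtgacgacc
Rps6 (chr5:106420521-106420580, minus strand): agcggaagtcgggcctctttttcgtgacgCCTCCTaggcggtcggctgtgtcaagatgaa
Rpl38 (chr10:100200395-100200454, plus strand): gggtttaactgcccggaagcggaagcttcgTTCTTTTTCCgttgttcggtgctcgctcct

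Of the 76 members, 60 had a single promoter entry. A C at the annotated start followed by at least 4 C or T stood in 23 of these 60 (38.3%) and in 2.603% of the 24206 single promoter entries of all genes. A run of at least 7 C or T between 10 bases before and 15 after the start was held by 41 members (68.3%), against 13.9% of all entries. In the whole window from 250 bases before to 50 after the start, searched on both strands, CCGGAAG (the core of an Ets factor motif) was in 31.7% of members and 9.49% of all entries. GGGCGG was in 56.7% and 35.9%, AAGATGG in 15% and 7.38%, and TATAAA in 10% and 14.3%. These are matches of letters, not sites of binding.

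Libraries held 56922779 to 88243188 estimated counts, of which 4267714 to 8852972 fell on the 76 members, so counting error is small beside the spread between lungs. The 6 rows of ribosomal RNA and 7SL RNA held 14.1 to 19.9% of the counts. All 18 markers of lung tissue (among them Nkx2-1, Sftpc, Ager and Pecam1) passed the filter on low counts, and their differences between groups are given with the other marker lists. By Xist and the Y-linked genes, 4 libraries were male (control 1 and 2, hypoplastic 3 and treated 3) and the others female. None of the 684 member values in the table was a whole number, against 19.5% of all values above 0, and the sources do not explain the fractions. These shares were not matched for level of expression. Values of single members may include reads of near-identical copies, which was not tested.

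The ribosomal protein genes held 8.39, 7.497 and 8.66% of all counts in control libraries 1, 2 and 3. In hypoplastic libraries 1, 2 and 3 they held 10.4, 9.27 and 9.55%, so each hypoplastic library lay above each control library. In treated libraries 1, 2 and 3 the shares were 8.34, 10.03 and 8.80%, with the first among the controls and the second among the hypoplastic libraries. The group means were 8.18% ± 0.608, 9.75% ± 0.608 and 9.06% ± 0.873 (SD, n = 3 each). The large-subunit sum divided by the small-subunit sum was 1.16 ± 0.0239, 1.14 ± 0.0367 and 1.18 ± 0.0255 (SD, n = 3 each) in control, hypoplastic and treated lungs, with overlapping libraries.

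**Figure D1:**
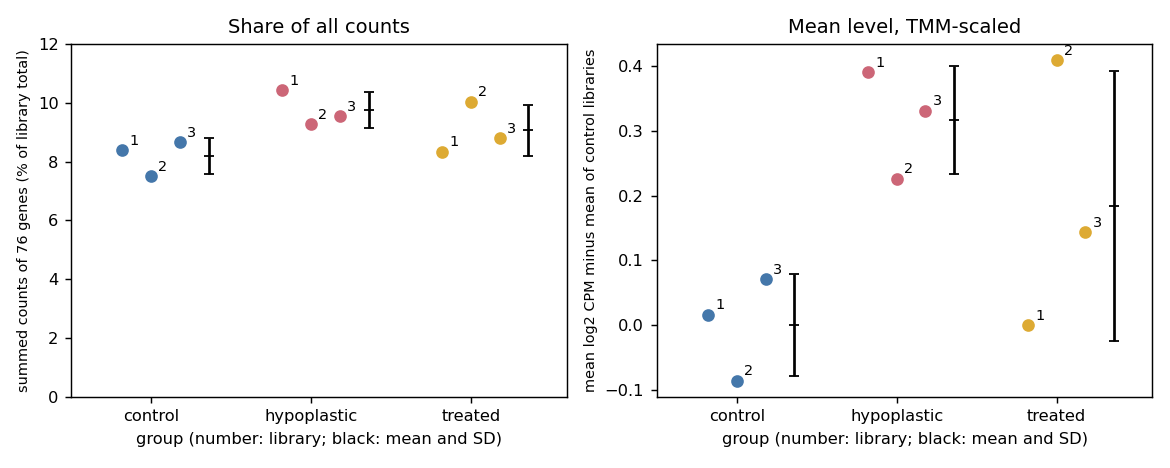
Left, the summed counts of the 76 genes as a percent of each library's total, by group; right, the mean log2 CPM of the 76 genes after TMM scaling, minus the mean of the control libraries. Coloured points are libraries with their numbers, and black marks give the mean and SD of 3 libraries; each hypoplastic library lies above each control library, and treated library 2 lies apart from treated 1 and 3.

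For single genes, levels are CPM after TMM scaling (edgeR's factors, which set the typical gene to equal levels across libraries), and log2 fold changes come from edgeR's quasi-likelihood test over all 12966 genes that passed the filter on low counts, with all 76 members among them. Called means a Benjamini-Hochberg adjusted p under 0.05 over all genes tested. With no transcript lengths in the files used, levels were not compared between genes. Averaged over the members as geometric means, the level relative to the controls was 1.31, 1.17 and 1.26 times in hypoplastic libraries 1, 2 and 3. It was 0.9996, 1.33 and 1.10 times in treated libraries 1, 2 and 3, and the control libraries themselves ran from 0.942 to 1.05 times. Lung is a mixture of cells, and in bulk RNA fewer cells of a type and less RNA per cell cannot be told apart.

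The members varied together over the 9 libraries. Pearson's r between a member and the mean log2 CPM of the other members, given as a description over libraries that share depth and scaling, had a median of 0.94 and was above 0.9 for 54 members and above 0.8 for 72. After subtracting the group means the median r was still 0.92, so members also varied together between libraries of the same group. No such r was computed for other sets of genes, so it is not known to be particular to the members. The SD of log2 CPM within groups had a median of 0.160 over the members, 0.225 over all genes tested and 0.171 over the 2243 other genes at or above the lowest member's level. Apart from Rpl38, Rpl30 and Rpl17, described further on, the highest library exceeded the lowest by 1.31 to 1.91 times in the other 73 members.

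**Figure D2:**
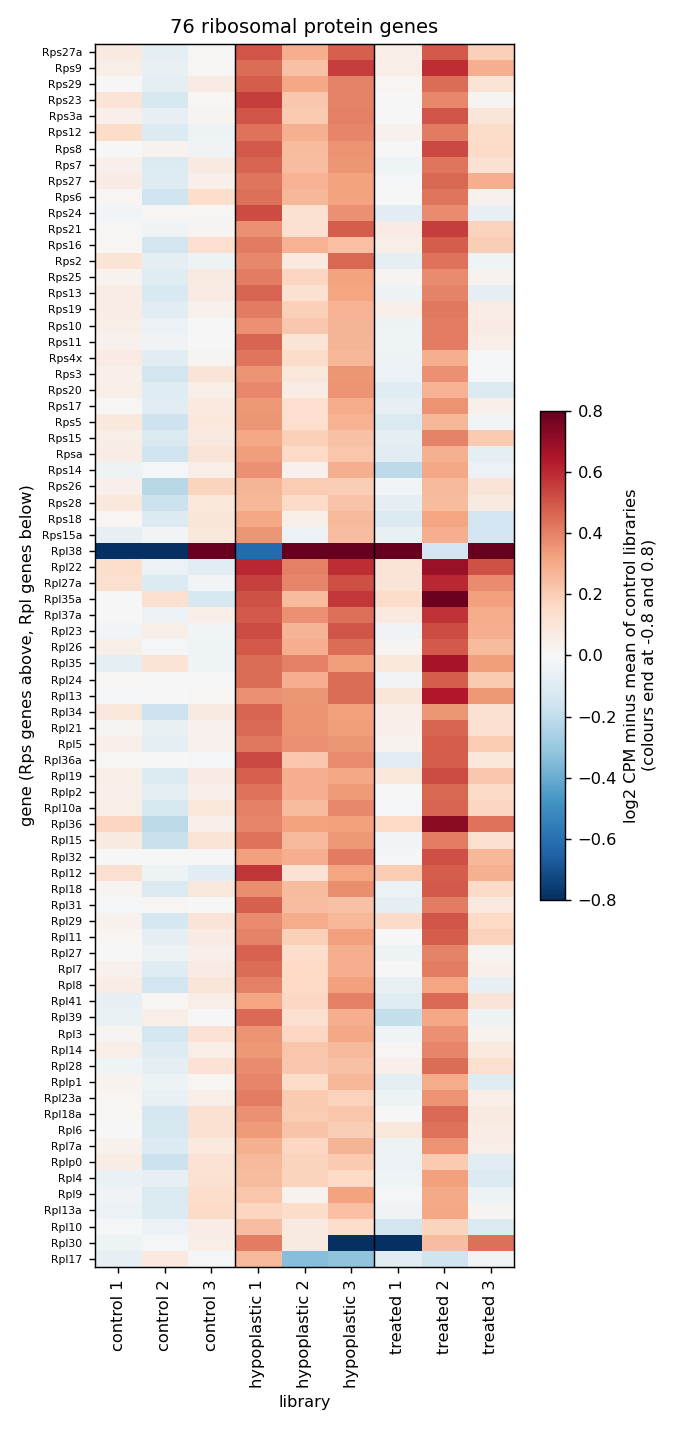
Log2 CPM of each of the 76 genes (rows) in the 9 libraries (columns) minus the mean of the control libraries, with small-subunit genes above and large-subunit genes below, each ordered by their mean in hypoplastic lungs; colours end at -0.8 and 0.8. Nearly all rows are red in hypoplastic libraries 1, 2 and 3 and in treated library 2, while Rpl38, Rpl30 and Rpl17 break the pattern.

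The first comparison, hypoplastic against control, asks how these genes differ in the model of oligohydramnios. In it 74 of 76 members had a log2 fold change above 0 (51.9% of all genes tested), with a median of 0.31, or 1.24-fold, and a middle range (quartiles) of 0.27 to 0.37. The median of all genes tested was 0.013, and that of the 2243 other genes at or above the lowest member's level was near 0 as well. In 65 of 76 members (85.5%) each hypoplastic library lay above each control library, which held for 7.68% of all genes tested. It was the other way round in 0 members (9.05% of all genes). Because the members varied together, counts of members in this and the later comparisons are not counts of independent observations. No member was called by edgeR, by DESeq2 (smallest adjusted p 0.0574) or by limma voom. At an unadjusted p under 0.05 edgeR had 30 members higher (39.5%, against 6.67% of all genes) and 0 lower (against 5.69%). The count of 30 was 12, 13 and 14 without control library 2, hypoplastic library 1 and hypoplastic library 3, 18 and 17 without control libraries 1 and 3, and 49 by DESeq2, beside 4.01 to 7.58% of all genes in these fits. Of all 12966 genes edgeR called 1 (0.00771%) in this comparison, and the smallest edgeR adjusted p among the members was 0.317. DESeq2 called 207 of all genes (1.6%) and limma voom 1 (0.00771%). The small-subunit genes had a median of 0.30 and the large-subunit genes 0.32.

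**Figure D3:**
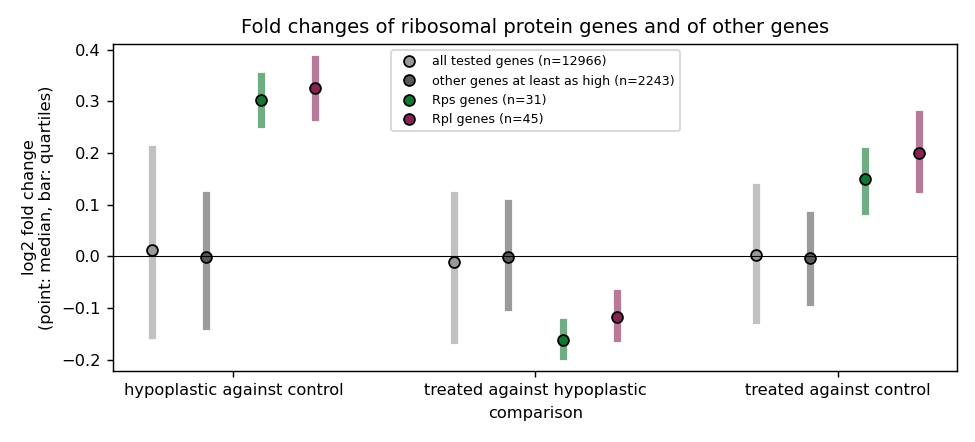
Log2 fold changes (vertical axis) in the 3 comparisons (horizontal axis) for all tested genes, for other genes at least as high as the lowest member, and for Rps and Rpl genes; points are medians and bars span the quartiles. Medians of Rps and Rpl genes are 0.30 and 0.32 in hypoplastic against control, -0.16 and -0.12 when treated lungs are set against hypoplastic ones, and 0.15 and 0.20 against control.

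The 6 members of smallest p were all of the large subunit. Rpl22, a protein known for its part in T-cell development and dispensable for the ribosome itself, was at 124, 109 and 105 CPM in control libraries 1, 2 and 3. It was at 170, 149 and 169 CPM in hypoplastic libraries 1, 2 and 3 and at 121, 181 and 160 CPM in treated libraries 1, 2 and 3. Each hypoplastic library was above each control library, and treated library 1 was among the controls. The log2 fold change of Rpl22 was 0.53 (SE 0.146, edgeR adjusted p 0.317). Its paralog Rpl22l1, whose protein can take the place of Rpl22, was at 0.077 (SE 0.137, adjusted p 0.853 by edgeR) with overlapping libraries, and at -0.23 in treated against hypoplastic lungs.

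Rpl27a was at 802, 681 and 724 CPM in control and at 1072, 964 and 1048 CPM in hypoplastic libraries 1, 2 and 3, which edgeR fitted as a log2 fold change of 0.48 (SE 0.144, adjusted p 0.323). Rpl23, which lies on the face of the large subunit that meets the small one, was at 379, 398 and 380 CPM in control and 554, 466 and 546 CPM in hypoplastic libraries. In both genes the gap between the groups was wider than the range within the controls. Rpl34, Rpl37a and Rpl26 had log2 fold changes of 0.38, 0.43 and 0.41, each without overlap of the libraries and with edgeR adjusted p of 0.323 to 0.324.

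The stalk proteins Rplp0, Rplp1 and Rplp2 form the arm of the large subunit that recruits translation factors. Rplp0, often used as a reference gene in PCR, was at 3731, 3175 and 3875 CPM in control and 4277, 4044 and 4133 CPM in hypoplastic libraries, or 0.21 on the log2 scale (SE 0.169, adjusted p 0.641 by edgeR). Rplp1 and Rplp2 had log2 fold changes of 0.27 (SE 0.156) and 0.35 (SE 0.128). All 3 were without overlap, with the smallest gap in Rplp0.

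Rpl5 and Rpl11 form a particle with a small ribosomal RNA that joins the large subunit as a unit. Rpl5 was at 903, 831 and 896 CPM in control and 1172, 1126 and 1117 CPM in hypoplastic libraries, or 0.38 on the log2 scale (SE 0.134, adjusted p 0.347 by edgeR). Rpl11 was at 0.31 (SE 0.141, adjusted p 0.415 by edgeR), also without overlap. Among the other large-subunit genes, Rpl3, near the catalytic centre, and Rpl39, in the exit tunnel, were at 0.28 and 0.30, both without overlap. Rpl10, one of the last proteins to join, was at 0.15 (SE 0.138), the lowest value among the members without overlap. Rpl13a, which is released from the ribosome in the interferon response, was at 0.18 with overlapping libraries.

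In the small subunit, Rps6, the classic substrate of the S6 kinases downstream of mTOR, was at 1979, 1754 and 2161 CPM in control and 2657, 2350 and 2449 CPM in hypoplastic libraries. Its log2 fold change was 0.34 (SE 0.166, edgeR adjusted p 0.435), and the libraries did not overlap. Rps27a, which is made as a fusion with ubiquitin, had the largest log2 fold change of the small-subunit genes, 0.43 (SE 0.141, edgeR adjusted p 0.329). Rps19, the gene most often mutated in Diamond-Blackfan anaemia, was at 1538, 1386 and 1516 CPM in control and 1972, 1685 and 1797 CPM in hypoplastic libraries, without overlap. Rps27 and Rpsa, the latter also known as a laminin receptor, had log2 fold changes of 0.34 and 0.23 without overlap. Rps3, at the mRNA entry, and Rps14 had values of 0.27 and 0.24 with overlapping libraries, because hypoplastic library 2 was below control library 3 in each.

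The 11 members whose libraries overlapped in this comparison were Rpl12, Rps3, Rps14, Rps2, Rpl13a, Rpl9, Rps15a, Rps18, Rpl38, Rpl17 and Rpl30, with log2 fold changes from -0.11 to 1.09. The first 8 of these had values from 0.18 to 0.34, inside the range of the other members. Members with the pyrimidine tract at the annotated start had a median log2 fold change of 0.30 (quartiles 0.22 to 0.37, n = 23). Those without it there had 0.33 (quartiles 0.28 to 0.38, n = 37). Some of the latter, such as Rpl12 and Rpl13, had a pyrimidine run near the start. The split therefore cannot compare mRNAs with and without a tract.

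Rpl38, Rpl30 and Rpl17 had the lowest correlations with the other members, with r of -0.053, 0.21 and -0.19. Rpl38 is required in mouse embryos for translation of a subset of Hox mRNAs. It was at 39.4, 40.02 and 266 CPM in control, 48.6, 328 and 361 CPM in hypoplastic and 271, 67.4 and 590 CPM in treated libraries 1, 2 and 3. The libraries thus fell into 4 with at most 67.4 CPM and 5 with at least 266 CPM, a gap of 3.95 times, and each group held libraries of both kinds. The 4 low libraries were 2 male and 2 female, so the levels of Rpl38 did not follow sex either. Its log2 fold change between hypoplastic and control lungs was 1.09 (SE 0.981, edgeR adjusted p 0.677), and it ran from 0.68 to 2.63 when single libraries were left out.

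Rpl30, which also binds RNA elements outside the ribosome, was at 545, 557 and 579 CPM in control, 742, 589 and 305 CPM in hypoplastic and 255, 665 and 760 CPM in treated libraries 1, 2 and 3. Hypoplastic library 3 and treated library 1 were low, 1.79 times under the next library, while most other members were high in hypoplastic library 3. Without hypoplastic library 3 the log2 fold change of Rpl30 in hypoplastic against control lungs was 0.25 in place of -0.038. Rpl17, at the exit of the peptide tunnel, was at 746, 824 and 777 CPM in control, 934, 618 and 624 CPM in hypoplastic and 736, 700 and 769 CPM in treated libraries. Its log2 fold change in hypoplastic against control was -0.11 (SE 0.162, edgeR adjusted p 0.818). What sets these 3 genes apart was not tested.

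**Figure D4:**
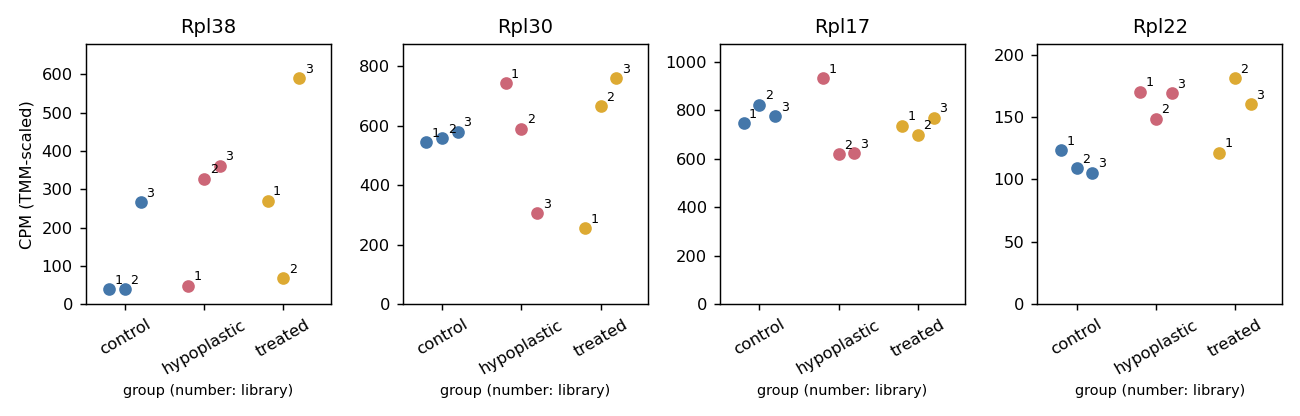
TMM-scaled CPM (vertical axes from 0) of Rpl38, Rpl30, Rpl17 and, for contrast, Rpl22 in each library, by group, with library numbers beside the points. Rpl38 has 4 libraries at or below 67.4 CPM and 5 at or above 266 CPM, Rpl30 has hypoplastic 3 and treated 1 at 305 and 255 CPM, and Rpl22 separates control from hypoplastic libraries.

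The second comparison, treated against untreated hypoplastic lungs, asks how the genes differ with the vesicles. In it 4 of 76 members (5.26%) had a log2 fold change above 0, against 48.1% of all genes tested. The median was -0.13, or 0.911-fold, against -0.010 for all genes. edgeR called 0 of the 76 members and 0 of all genes (0%), and at an unadjusted p under 0.05 there were 0 members higher (2% of all genes) and 0 lower (3.56%). DESeq2 and limma voom also called 0 members, against 17 (0.131%) and 0 of all genes. No member had libraries that did not overlap in either direction (5.07 and 4.74% of all genes).

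The treated libraries differed among themselves. Treated library 1 lay below each hypoplastic library in 73 of 76 members, treated library 3 in 64 and treated library 2 in 0, against 26.4, 24 and 22.8% of all genes tested for the same libraries. In 74 members treated library 2 was above each control library, which held for treated library 1 in 9 members and for treated library 3 in 43, against 25, 23.1 and 28.5% of all genes for treated libraries 2, 1 and 3. Without treated library 2 the median against hypoplastic lungs was -0.28, and in 64 members both remaining libraries were below each hypoplastic library (10.4% of all genes), with 21 members lower at an unadjusted p under 0.05 (3.61% of all genes) and 0 called by edgeR. Without treated library 1 the median was -0.045.

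The 6 members of smallest p here were Rpl39, Rpl34, Rps23, Rps24, Rps20 and Rpl8, with log2 fold changes from -0.26 to -0.21 and edgeR adjusted p of 0.915 to 0.931. Rps23, which lies at the decoding centre, was at 1364, 1079 and 1223 CPM in hypoplastic and 924, 1212 and 943 CPM in treated libraries 1, 2 and 3, or -0.25 on the log2 scale (SE 0.150, adjusted p 0.915 by edgeR). Treated library 2 was inside the hypoplastic range, and the other 2 were below it. Rpl39 was at 789, 629 and 706 CPM in hypoplastic and 505, 713 and 561 CPM in treated libraries, with the same arrangement. The log2 fold changes of Rpl34, Rps24, Rps20 and Rpl8 were -0.21, -0.25, -0.24 and -0.22. Rpl38 was at 0.33, at -0.15 without hypoplastic library 1 and at -0.54 without treated library 3.

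The last comparison, treated against control, asks what differs from normal lung with treatment. It shares libraries with both of the others, and in it 73 of 76 members had a log2 fold change above 0 (50.6% of all genes), with a median of 0.18, or 1.13-fold, against 0.0028 for all genes. edgeR, DESeq2 and limma voom called 0 members, against 0, 14 (0.108%) and 0 of all genes. At an unadjusted p under 0.05 edgeR had 8 members higher (10.5%, against 1.67% of all genes) and 0 lower (2.5%). The libraries did not overlap in 8 members, all higher (10.5%, against 4.37% of all genes), and 0 were lower (5.02% of all genes). These were Rpl13, Rpl35a, Rpl37a, Rpl12, Rpl19, Rps21, Rpl29 and Rpl21. With the library totals as the scale in place of TMM the count was 23, against 4.16% of all genes. Without treated library 2 the median was 0.039 with 0 members at an unadjusted p under 0.05, and without treated library 1 it was 0.26 with 22 (1.56 and 1.59% of all genes higher in these fits).

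The 6 members of smallest p were Rpl22, Rpl36, Rpl13, Rpl35, Rpl35a and Rpl27a, again all of the large subunit, with edgeR adjusted p of 0.998. Rpl13 was at 365, 368 and 370 CPM in control and 393, 573 and 467 CPM in treated libraries, a log2 fold change of 0.38 (SE 0.133). Rpl35a, another gene mutated in Diamond-Blackfan anaemia, was at 114, 125 and 104 CPM in control, 162, 136 and 169 CPM in hypoplastic and 126, 196 and 143 CPM in treated libraries. Its log2 fold change was 0.44 (SE 0.165), and treated library 1 stood just above the highest control. Rpl22 and Rpl36 had values of 0.45 and 0.45, with treated library 1 among the controls. For Rpl35 and Rpl27a they were 0.38 and 0.37, and for Rpl38 1.42 (SE 0.988).

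Other genes of the translation machinery were read from lists drawn up by function. Among ribosomal proteins outside the naming rule, Fau, which encodes a ribosomal protein fused to a ubiquitin-like protein, had a log2 fold change of 0.30 (SE 0.121) between hypoplastic and control lungs, and Rack1, a scaffold on the small subunit named after its values were seen, 0.26 (SE 0.159). Both were without overlap and neither was called by edgeR (adjusted p 0.370 and 0.515). In all, 7 of the 12 related genes on the list were in the table and 6 were tested, with 0 called in each comparison. Rps4y2, whose name is that of a Y-linked copy of Rps4x, was read in every library, females included, at 5.12 to 19.9 CPM. Its location in the rat genome was not checked here, and the source of its reads is uncertain. The log2 fold change of Rps4y2 was -0.81 (SE 0.334) in hypoplastic against control and 0.60 in treated against hypoplastic lungs. Fau was at 0.23 in treated against control. Rpl37l1, which was picked out after its values were seen, was at 516, 522 and 519 CPM in control and 698, 624 and 666 CPM in hypoplastic libraries.

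Translation factors, which start and extend the protein chain, lay mostly above 0 in hypoplastic against control. Of 31 tested, 27 had a log2 fold change above 0 (51.9% of all genes), with a median of 0.20, and 14 were without overlap and higher (7.68% of all genes). edgeR called 0, with 7 higher and 0 lower at an unadjusted p under 0.05 (6.67 and 5.69% of all genes). The same list held 6 genes that are no translation factors but also have mRNAs with a pyrimidine tract (Npm1, Nap1l1, Hnrnpa1, Naca, Btf3 and Tpt1), set apart here after the values were seen. All 6 were above 0, with a median of 0.29, and 5 were without overlap. Eef1d, a subunit of the exchange factor of elongation factor 1, and Eif4a2, an RNA helicase of initiation, had the smallest p, with 0.33 (SE 0.108) and 0.39 (SE 0.126). Eef1g was at 0.41, and the abundant elongation factors Eef2 and Eef1a1, named after their values were seen, at 0.24 (SE 0.198) and 0.14 (SE 0.269), the last with overlap. In treated against hypoplastic lungs 25 of the 31 factors and all 6 other genes were below 0, with medians of -0.12 and -0.17, and Eif3e (-0.26, SE 0.105) and Eif4a2 (-0.29, SE 0.126) were lower without overlap (4.74% of all genes). Against control, 21 of the 31 factors were above 0 in treated lungs, with a median of 0.081, and Eef1d was at 0.23 and Eef1g at 0.28. The summed level of all 37 was 36842 to 41541 CPM in control, 43275 to 47300 in hypoplastic and 37334 to 46436 in treated libraries, the highest treated value being that of treated library 2.

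Genes that build ribosomes and genes of the mitochondrial ribosome were centred near 0 in hypoplastic against control. Of 34 assembly and RNA polymerase I genes tested, 18 had a log2 fold change above 0 in hypoplastic against control, with a median of 0.019, and 1 was higher and 1 lower without overlap (7.68 and 9.05% of all genes). Ncl (nucleolin) was at 0.27 (SE 0.136) and Polr1a, the catalytic subunit of RNA polymerase I, at -0.35 (SE 0.149). Of 70 mitochondrial ribosomal protein genes, 34 were above 0 in hypoplastic against control, with a median of -0.011, and 7 were higher and 2 lower without overlap, beside the same shares of all genes. Mrps26 and Mrpl43 had the smallest p, with 0.39 and -0.52. None of these genes was called by edgeR in any of the 3 comparisons. In treated against control lungs, 27 of the 34 assembly genes and 58 of the 70 mitochondrial ones were above 0 (50.6% of all genes), with medians of 0.067 and 0.091 that lie near that of the translation factors, and with Ncl at 0.38, Gar1 at 0.36, Mrps15 at 0.31 and Mrps26 at 0.33. In treated against hypoplastic lungs Ubtf and Polr1a were at 0.27, Mrpl4 at 0.27 and Mrpl2 at 0.31.

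**Figure D5:**
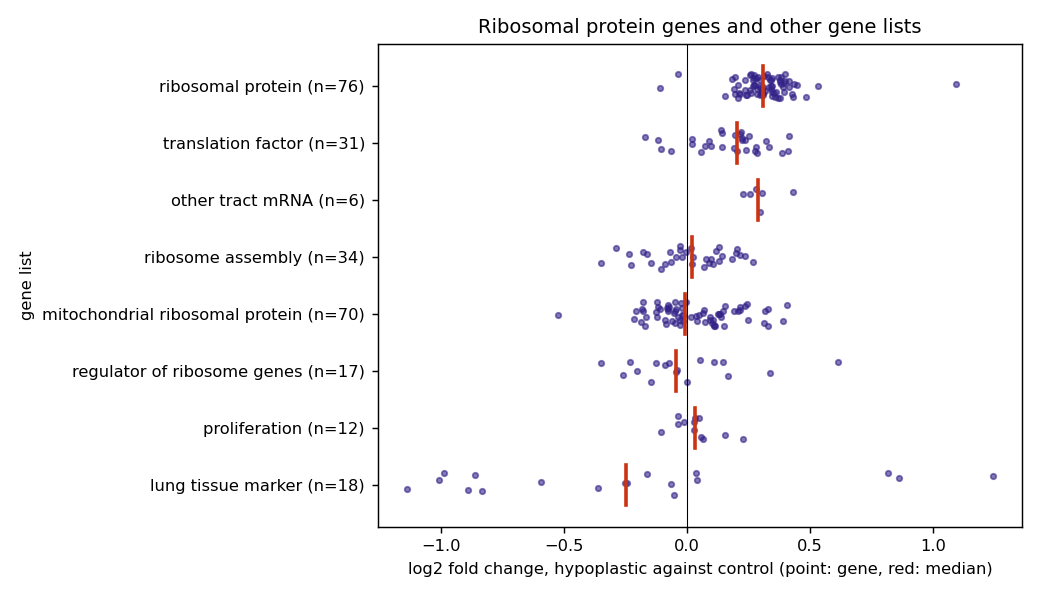
Log2 fold changes in hypoplastic against control lungs (horizontal axis) of the genes on 8 lists (vertical axis, with the number of genes tested); points are genes and red lines medians. The medians are 0.31 for ribosomal protein, 0.20 for translation factor and 0.29 for other tract mRNA genes, between -0.046 and 0.032 for the next 4 lists and -0.25 for lung tissue markers; these are not all the lists read.

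Regulators of ribosome production had a median of -0.046 in hypoplastic against control over 17 tested genes, of which 1 was higher and 4 lower without overlap (7.68 and 9.05% of all genes). Mtor itself was at -0.26 (SE 0.118) and Max, the partner of Myc, at -0.35 (SE 0.134), while Myc, named after its values were seen, was at 0.11 with overlap. Gabpa, an Ets factor, was at -0.21 (SE 0.0850) when treated lungs were set against hypoplastic ones and at -0.15 against controls. Mxd1 was at -0.32 in the former comparison and Max at -0.16 in the latter.

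Gas5, whose RNA begins with the same kind of pyrimidine tract and hosts small nucleolar RNAs, was at 37.2, 33.5 and 37.0 CPM in control, 50.1, 57.7 and 53.8 CPM in hypoplastic and 39.7, 50.1 and 50.8 CPM in treated libraries. In hypoplastic against control it was at 0.59 (SE 0.120) without overlap, and the adjusted p was 0.317 by edgeR and 0.00585 by DESeq2. Against control it was 0.38 (SE 0.120) in treated lungs, again without overlap, and in treated against hypoplastic lungs it was -0.20. Snhg11, another host gene, was at -0.31, -0.47 and -0.17 in hypoplastic against control, treated against control and treated against hypoplastic lungs. Only 3 of the 10 host genes on this list were in the table.

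Markers of lung tissue and of other cells were read beside these results. Of the 18 lung tissue markers, 13 had a log2 fold change below 0 in hypoplastic against control, with a median of -0.25, and 5 were lower without overlap (9.05% of all genes). edgeR called 0, with 8 lower and 0 higher at an unadjusted p under 0.05 (5.69 and 6.67% of all genes). The markers on the list did not move together. The stromal markers Col1a1, Col3a1 and Pdgfra were at 1.24, 0.82 and 0.86, with hypoplastic library 2 highest in each. Pecam1, Cdh5 and Kdr, of endothelium, were at 0.038, -0.055 and -0.066, and the libraries of all of these genes overlapped. Sftpc, the surfactant protein of alveolar type II cells, was at 645, 951 and 873 CPM in control, 496, 292 and 438 CPM in hypoplastic and 758, 595 and 567 CPM in treated libraries 1, 2 and 3. Nkx2-1, the transcription factor of lung epithelium, was at -0.36 (SE 0.136) in hypoplastic against control and at 0.40 (SE 0.136) in treated against hypoplastic lungs. In the latter comparison 13 of 18 were above 0 and 4 were higher without overlap (5.07% of all genes), with 0 called by edgeR. The summed level of 12 neutrophil genes, none at 0 in all libraries, was 23.1 to 30.5 CPM in control, 113 to 194 in hypoplastic and 48.0 to 113 in treated libraries, and 8 of the 11 tested were higher in hypoplastic than in control lungs without overlap (7.68% of all genes). The neutrophil sums of treated libraries 1, 2 and 3 were 75.1, 48.0 and 113 CPM. The 9 heart muscle genes summed to 242, 114 and 4.36 CPM in hypoplastic libraries 1, 2 and 3. In control libraries the sum was 4.475 to 18.3 CPM and in treated libraries 4.36 to 10.5 CPM. Sums of 12 proliferation genes overlapped between the groups (1321 to 1599 CPM in control, 1222 to 1773 in hypoplastic and 1234 to 1796 in treated libraries), as did those of 15 red cell genes, at 4515 to 14681, 4439 to 8820 and 5143 to 8862 CPM. Skeletal muscle genes summed to 9.13 to 10.8 CPM in control, 13.4 to 16.98 in hypoplastic and 10.2 to 14.8 in treated libraries, and thymus and lymphocyte and liver genes to at most 5.94 CPM in any library. The part of these lung and other cells in the ribosomal protein levels was not tested. Within males, hypoplastic library 3 was above both control libraries in the mean of the members, and within females hypoplastic libraries 1 and 2 were above control library 3.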

How the data were processed

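Total RNA of 9 fetal rat lungs was sequenced after depletion of ribosomal RNA, per the labels' protocols, with extraction of all libraries on the same day. The authors deposited estimated counts per NCBI Gene ID, without scaling between libraries. The submitters' processing notes name the build rn7 and DESeq2 without a role, and those sources do not state the aligner or counting program. Symbols came from RefSeq (GRCr8), with 17314 of 17465 IDs matched (99.1%). The estimated counts were rounded, filtered by filterByExpr (12966 genes kept) and tested with edgeR 4.0.16 in R 4.3.3 (TMM, glmQLFit, glmQLFTest, 1 fit of all 9 libraries, a term per group), with Benjamini-Hochberg adjustment over all genes. Standard errors are the absolute log2 fold change over the root of F. DESeq2 1.42.0 and limma 3.58.1 (voom) were alternatives, as were other size factors, filters, covariates and the omission of single libraries. The procedure was tested on simulated data. Libraries of 1 group differed by more than sampling noise (chi-square per degree of freedom of at least 132).

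The members and lists were chosen with earlier results of these data known. Genes named were the 6 members of smallest p per comparison, 18 members fixed for their known roles, the 3 with the largest spread within groups, the 3 least correlated with the rest, and the 2 genes of smallest p per pathway list. A few other genes, such as lung markers, were named after their values were seen. Naming by level per coding length was planned but not done, because no lengths were used here. Results of 1 pathway list and of 1 gene related to the members are not reported here.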

Additional observations from a re-analysis of the deposited data

How the results depend on the processing

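In each of the 3 comparisons the number of ribosomal protein genes called was 0 under all 12 other settings (size factors, filters, DESeq2, limma voom, the 6 libraries compared alone, ribosomal and 7SL rows left out, sex, replicate block, and TMM factors without the members, the last chosen after the data were seen) and under the omission of each single library. The smallest adjusted p of a member in hypoplastic against control was 0.0574 with DESeq2. The median log2 fold change in that comparison was 0.271 to 0.316 under the other settings and 0.246 to 0.368 with 1 library left out. The number of members higher at an unadjusted p under 0.05 was 30 in the main fit (6.67% of all genes). It was 12 to 32 with 1 library left out (4.01 to 7.58% of all genes) and 17 with the replicate block (5.47%). With sex as a covariate it was 18 (4.16%) and with DESeq2 49 (7.48%). Members without overlap, which numbered 65, were 59 to 67 under other scalings (5.59 to 7.9% of all genes). With 1 library left out they were 65 to 73, but groups of fewer libraries overlap less easily, and the share of all genes went from 7.68% to between 10.3 and 14.9%. In treated against control that count was 16, 14 and 42 without control library 1, control library 3 and treated library 1 (8.15, 9.6 and 8.08% of all genes), in place of 8 (4.37%).

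With 1 library left out, the medians ran from -0.276 to -0.0446 in treated against hypoplastic and from 0.0394 to 0.264 in treated against control, with treated library 2 and treated library 1 at the ends. Such omissions gave log2 fold changes of -0.325 to 0.248 for Rpl30 in hypoplastic against control, and in treated against hypoplastic of -0.540 to 0.809 for Rpl38 and -0.317 to 0.159 for Snhg11. The cause was not tested.

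The correlation of deviations between libraries of the same number was -0.282 to 0.227, so the numbers were not taken to pair lungs. With the replicate block the medians were 0.308 for hypoplastic against control and, for treated lungs, -0.139 against hypoplastic and 0.176 against control ones, and 0 members were called.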
